A study of Homo sapiens with 6 samples.

Results

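Vesicle tethers and coats move cargo between the endoplasmic reticulum, the Golgi, endosomes, lysosomes and the cell surface. The genes described here encode the COG complex, the exocyst, the VPS and TRAPP proteins, the SEC family, the adaptor-related protein AP1AR and the sorting nexins. They were chosen by gene symbol, under a rule set with earlier results of these data known, and pseudogenes and SEC13 were left out. Each gene was read by its probe set with the highest mean over all arrays. The choice gave 117 of the 14812 genes tested, of which 113 code for proteins and 4 are antisense RNAs that share a member's symbol. Expression was measured in HuH7, an established human hepatoma line, on 6 Affymetrix whole-transcript arrays. In 3 of them the cells had received a control gapmer and in the other 3 a gapmer against EGOT, a long noncoding RNA induced by double-stranded RNA. All wells also received a plasmid expressing the kinase PKR and poly I:C, an artificial RNA duplex that mimics viral infection. The control cells were therefore in a stimulated state as well. Each well held 100000 seeded cells and was given 50 pmol of gapmer and 0.3 µg of PKR plasmid, and RNA was taken 36 hours after transfection. The labels name no culture of origin for a replicate, and p-values then reflect only the spread among these arrays, which may be technical. The model is limited to 1 cell line and 1 gapmer of each kind.

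Gapmers are antisense oligonucleotides whose DNA centre lets RNase H cut the RNA they pair with. The sequence that the labels name as targeted is shown for each gapmer because every difference below is between cells that received one or the other. They are printed as the labels write them, taken to be 5′ to 3′.
gapmer against EGOT: agagacacttagaaga
control gapmer: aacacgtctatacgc

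A vesicle leaves its donor membrane under a coat and is caught at its target by a tether, after which SNARE proteins fuse the membranes. COPII coats carry cargo out of the endoplasmic reticulum, COG and GARP catch vesicles at the Golgi, the exocyst at the plasma membrane, and CORVET and HOPS at endosomes and lysosomes. TRAPP complexes tether and also activate small GTPases of the Rab family, while retromer, sorting nexins and ESCRT complexes sort cargo on endosomes. Hepatocytes secrete plasma proteins in quantity and depend on this traffic.

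The values are log2 expression levels made with RMA, and array medians over all probe sets lay between 5.08 and 5.23. EGOT gapmer replicate 2 had the highest median, and the members' mean level was also highest there, at 7.59 against 7.48 to 7.51 on the other 5 arrays. Correlations between arrays over all probe sets were 0.985 to 0.988 between the groups and 0.987 to 0.992 within them. EGOT itself fell to 29.5% of its control level (log2 difference -1.76, limma adjusted p = 0.0076). EIF2AK2, the gene of PKR, fell to 67.3% of its control level (-0.57, limma adjusted p = 0.0119), so its message differed between the groups although every well received the plasmid. The part of this difference in the results below was not tested. The 9 measured liver markers had a mean level of 12.2 to 12.3 on every array. APOA1 was the 1 of them that rose (0.36, limma adjusted p = 0.0406). The groups did not overlap in 5 of the 9, against 31.7% of all genes. Of the fibroblast and endothelial markers 4 of 4 measured lay below the median of every array. Of 4 measured leukocyte markers CD68 and LYZ rose, which took their mean level from between 6.90 and 6.99 to between 7.34 and 7.49. CD14 and CD2 did not pass. The part of these markers in the results below was not tested.

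Among the 113 protein-coding members, 10 rose and 11 fell with the EGOT gapmer at a limma adjusted p under 0.05 over all genes tested. Over all 14812 genes 8.41% passed, 5.2% higher and 3.21% lower, against 8.85% higher and 9.73% lower of the members. Over all 11911 protein-coding genes 9.59% passed, 5.84% higher and 3.74% lower. The median log2 difference of the members was 0.05 and that of all genes 0.04. The groups did not overlap in 58 members, with the EGOT gapmer arrays above in 35 and below in 23. Of all genes 31.7% had groups that did not overlap, 20.2% above and 11.5% below. Of the 4 antisense RNAs 0 passed with limma, and 1 of them, VPS9D1-AS1, had an unadjusted limma p of 0.0404. Nor did any of the 5 protein-coding members below the median of every array pass, and SNX31 among them had an unadjusted limma p of 0.0353. The count of calls depended on single arrays. Without control gapmer replicate 1 or 3 COG6 and EXOC6B were the members called, and without replicate 2 COG6 alone, where 0.392%, 0.23% and 0.0608% of all genes were called. Without EGOT gapmer replicates 1, 2 and 3 the members called were 9, 8 and 3, where 3.91%, 3.41% and 1.05% of all genes were called. After quantile normalization, cyclic loess and averaging of probe sets the members higher and lower were 9 and 14, 9 and 14, and 11 and 11. The share of all genes called was then 9.13%, 8.92% and 8.07%. With a variance trend 25 rose and 16 fell, where 17% of all genes were called. Among genes above the median mean, 24 rose and 17 fell of 97 members, where 34.4% of these genes were called. Most members thus lay among the brighter genes, and the part of expression level in their share called was not tested.

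**Figure D1:**
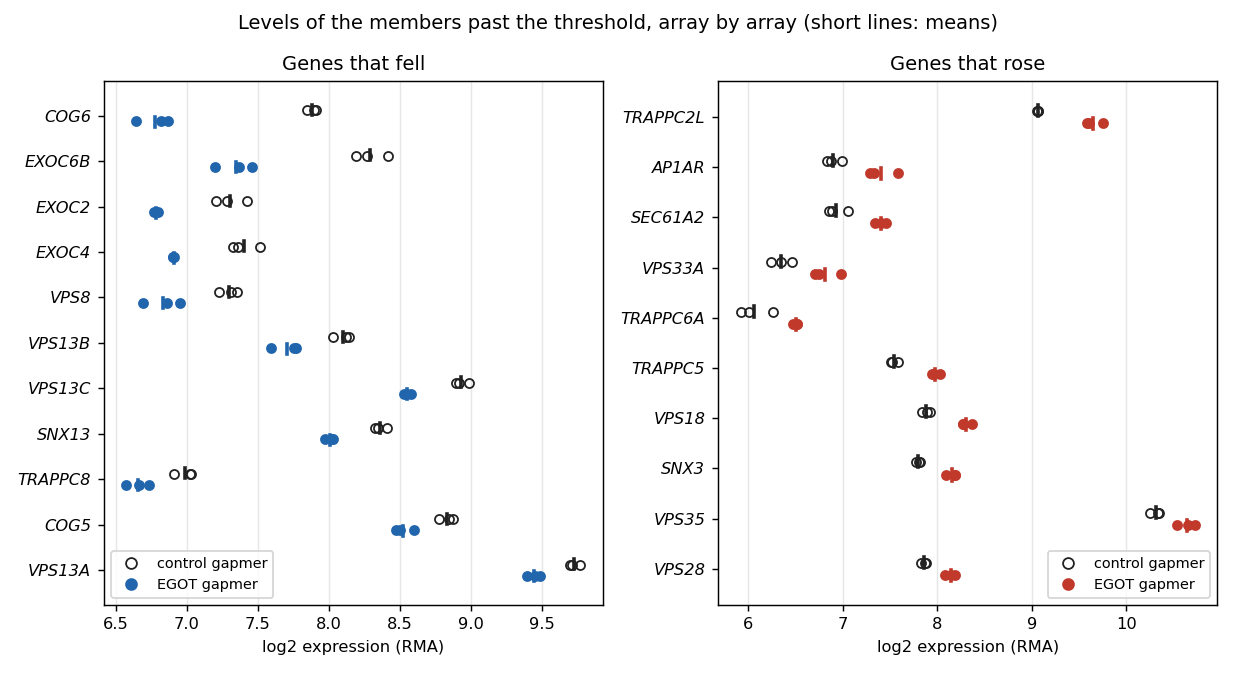
Log2 expression of the 21 members past the threshold, with 1 point for each array, open for the control gapmer and filled for the EGOT gapmer, and a short line at each mean. The left panel holds the 11 genes that fell and the right panel the 10 that rose, and in each of them the groups do not overlap.

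COG6, a subunit of the octameric COG complex that tethers vesicles recycling within the Golgi, had the largest difference of any member. Its log2 level was 7.91, 7.89 and 7.85 with the control gapmer and 6.64, 6.87 and 6.82 with the EGOT gapmer. Every EGOT gapmer array lay about a whole log2 unit below every control. The means were 7.88 ± 0.0318 and 6.77 ± 0.118 (SD, n = 3 each), a log2 difference of -1.11 with a standard error of 0.0815, or 46.3% of the control level (limma adjusted p = 0.00596). A two-sided exact permutation test of the 6 values gave p = 0.1, the smallest that 3 arrays against 3 allow. The gene spans chr13:39655627-39791666 in GRCh38.p14, and the part of it read by the probe set was not located. COG6 passed without each array in turn, with differences between -1.16 and -1.04.

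COG5 was the other COG subunit to fall, from 8.77, 8.87 and 8.84 to 8.47, 8.50 and 8.60. Its log2 difference was -0.31 (standard error 0.0718, limma adjusted p = 0.0454). COG5 and COG6 both belong to the lobe of the complex made of COG5 to COG8, named lobe B. The remaining lobe B subunits had differences of 0.09 for COG7 (95% interval -0.09 to 0.26) and 0.02 for COG8 (-0.14 to 0.17). In lobe A, COG2, COG3 and COG4 had 0.05, -0.0026 and 0.02. COG1 stood at 0.27 without passing (limma adjusted p = 0.127), with groups that did not overlap. The COG complex thus held 2 subunits that fell, against 3.21% of all genes, and 6 that did not pass, with a median of 0.02.

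The exocyst, which tethers secretory vesicles to the plasma membrane, had 3 members that fell and 0 that rose among 8 measured. Over all genes 3.21% fell and 5.2% rose. EXOC6B, a paralog of the subunit EXOC6, read 8.27, 8.41 and 8.19 with the control gapmer and 7.20, 7.46 and 7.37 with the EGOT gapmer. That is 51.9% of the control level, a log2 difference of -0.95 (standard error 0.0975, limma adjusted p = 0.00851). EXOC6B missed the threshold only without control gapmer replicate 2 among the leave-outs, at -0.89 (limma adjusted p = 0.0562). EXOC2, also known as SEC5 and a binding partner of Ral GTPases, read 7.28, 7.42 and 7.21 against 6.78, 6.80 and 6.77. The EGOT gapmer values had an SD of 0.016, and the log2 difference was -0.52 (limma adjusted p = 0.0166). EXOC4, also known as SEC8, read 7.33, 7.52 and 7.36 against 6.91, 6.90 and 6.91, a log2 difference of -0.49 (limma adjusted p = 0.0173). EXOC2 and EXOC4 form a subcomplex with EXOC1 and EXOC3, whose differences were -0.0031 (95% interval -0.16 to 0.15) and 0.06 (-0.12 to 0.24). In the second subcomplex EXOC5 had -0.11, EXOC6 -0.08 and EXOC8 0.30, and none passed. With the probe sets of EXOC5 averaged it had 0.07, so its sign depended on the probe set. EXOC8 had groups that did not overlap and a limma adjusted p of 0.0877.

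EXOC6B and EXOC6 were compared through their log2 ratio within each array, in which a shift of the whole array cancels. The difference in brightness between the probe sets drops out when this ratio is compared between the groups. The log2 ratio of EXOC6B to EXOC6 changed by -0.87 with the EGOT gapmer, and the groups did not overlap. Of 13 such paralog pairs among the members, chosen after the data were seen, 7 had ratios whose groups did not overlap. The share among gene pairs in general was not computed, and of all single genes 31.7% had groups that did not overlap. For each of these 7 pairs a two-sided exact permutation test gave p = 0.1, the smallest possible, or 0.186 after Benjamini-Hochberg adjustment over the 13 pairs. As no smaller p was possible, the test could not decide whether any of these ratios changed. Besides EXOC6B the widest gap was between VPS33A and VPS33B, at 0.63.

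The promoters of COG6, the gene with the largest fall, of EXOC4 and of TRAPPC2L, the gene with the largest rise, are shown to set members that moved in opposite directions side by side. They are RefSeq sequences of GRCh38.p14, from 250 bases before to 50 after the start of a transcript, 5′ to 3′ on the gene's strand. Capitals mark matches, on either strand, to CACGTG (E-box), CCGGAAG (ETS core) and AAGATGGCG (YY1 core). The regions are chr13:39655377-39655676, chr7:133252828-133253127 and chr16:88856877-88857176, all on the plus strand.
COG6: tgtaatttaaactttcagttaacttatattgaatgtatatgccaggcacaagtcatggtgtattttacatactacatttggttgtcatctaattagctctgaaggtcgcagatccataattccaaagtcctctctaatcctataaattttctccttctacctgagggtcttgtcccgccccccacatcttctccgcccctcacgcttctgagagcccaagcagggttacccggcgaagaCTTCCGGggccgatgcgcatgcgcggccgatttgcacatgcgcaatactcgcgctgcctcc
EXOC4: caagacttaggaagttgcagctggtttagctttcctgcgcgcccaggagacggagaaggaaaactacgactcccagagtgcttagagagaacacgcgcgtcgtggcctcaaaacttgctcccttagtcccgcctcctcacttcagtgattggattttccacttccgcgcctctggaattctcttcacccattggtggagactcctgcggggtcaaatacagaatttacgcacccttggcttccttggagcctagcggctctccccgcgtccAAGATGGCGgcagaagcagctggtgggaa
TRAPPC2L: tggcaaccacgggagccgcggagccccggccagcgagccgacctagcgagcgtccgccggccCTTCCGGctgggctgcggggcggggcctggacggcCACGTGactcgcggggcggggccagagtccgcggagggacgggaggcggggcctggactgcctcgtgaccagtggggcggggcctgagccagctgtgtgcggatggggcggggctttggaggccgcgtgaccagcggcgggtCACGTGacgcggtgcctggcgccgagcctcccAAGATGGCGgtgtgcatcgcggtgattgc

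Positions are counted from the start, with -1 the base before it. COG6 had an ETS core whose first base is at -11, and a GC content of 48.3%. EXOC4 had a YY1 core from base 22. TRAPPC2L had E-boxes from -153 and -11, an ETS core from -188 and a YY1 core from base 22, with a GC content of 76%. The start used for TRAPPC2L lies inside the gene's span of chr16:88856220-88862678, so other transcripts begin upstream of it. A promoter was matched for 91 of the 113 protein-coding members. The ETS core was present in 27 of the 91 against 10.7% of all 27305 promoters, the YY1 core in 7 against 1.85%, the E-box in 10 against 7.43%, and the cyclic AMP response element TGACGTCA in 3 against 1.98%. The core of the interferon-stimulated response element was present in 4 of the 91 against 3.65% of all promoters. It was in 0 of the 8 matched genes that fell and 0 of the 7 that rose. The members' promoters had a median GC content of 66%, against 58.3% over all promoters, and the part of base composition in these shares was not tested. The median was 68.7% in the matched genes that fell and 71.7% in those that rose, so the low GC content of COG6 is not typical. All windows shown hold a match, whereas those of EXOC2, COG5, SNX3 and TRAPPC5, also called, hold 0. These letters describe the windows and do not show that a factor binds there. The ETS core was in 1 of the 7 genes that rose and 2 of the 8 that fell.

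**Figure D2:**
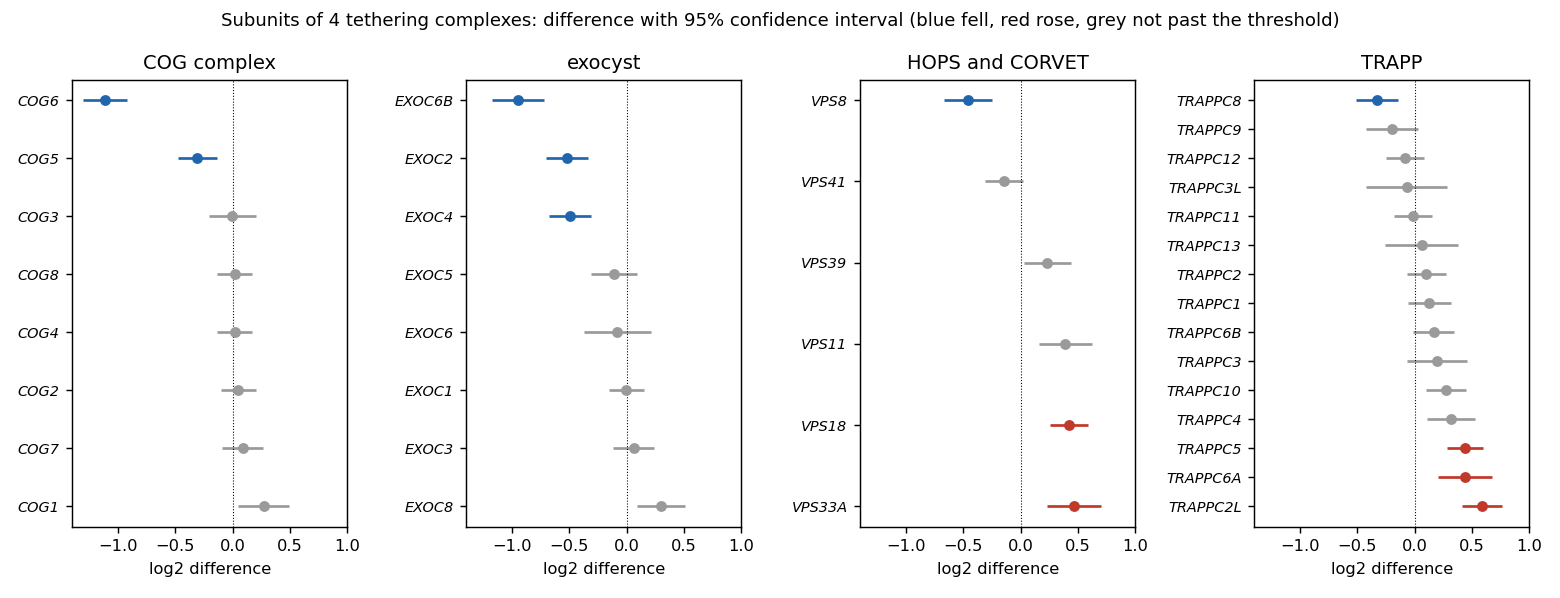
Log2 difference (EGOT gapmer minus control gapmer) with its 95% confidence interval for each measured subunit of the COG complex, the exocyst, HOPS and CORVET, and TRAPP. COG and the exocyst show subunits that fell and 0 that rose past the threshold, with COG1 and EXOC8 at 0.27 and 0.30. HOPS and CORVET and TRAPP hold both falls and rises past the threshold.

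TRAPP complexes, which activate Rab GTPases on Golgi membranes and in autophagy, moved in both directions, with 3 of 15 measured genes higher and 1 lower. Over all genes 5.2% rose and 3.21% fell. The TRAPP genes that rose all encode subunits of, or an alternative form of, the shared core. TRAPPC2L read 9.06, 9.06 and 9.07 with the control gapmer and 9.60, 9.59 and 9.75 with the EGOT gapmer. The control arrays were almost identical, and the log2 difference was 0.58 (standard error 0.0736, limma adjusted p = 0.0119). TRAPPC5 read 7.58, 7.51 and 7.52 against 7.95, 8.03 and 7.96, a log2 difference of 0.44 (limma adjusted p = 0.0171). TRAPPC6A read 5.92, 6.00 and 6.26 against 6.51, 6.52 and 6.47, also 0.44 (limma adjusted p = 0.043). Control gapmer replicate 3 was the highest of the TRAPPC6A controls but stayed below every EGOT gapmer array.

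Other core subunits did not pass and were above 0, apart from TRAPPC3L, by its symbol a form of TRAPPC3. It had -0.07 (limma adjusted p = 0.824) and a low mean level of 3.22 with the control gapmer. TRAPPC4 stood at 0.32 (limma adjusted p = 0.0697), TRAPPC3 at 0.19, TRAPPC6B at 0.16, TRAPPC1 at 0.13 and TRAPPC2 at 0.10. The TRAPPC2 value is uncertain because the genome holds the near-identical copy TRAPPC2B. TRAPPC8, which marks the TRAPP complex acting in autophagy, fell from 6.91, 7.02 and 7.03 to 6.58, 6.66 and 6.73, a log2 difference of -0.33 (limma adjusted p = 0.0454). Its partners TRAPPC11, TRAPPC12 and TRAPPC13 had -0.01, -0.09 and 0.06 and did not pass. The subunits of the other large TRAPP complex, TRAPPC9 and TRAPPC10, had -0.20 and 0.27 and did not pass either (limma adjusted p = 0.253 and 0.0673). The median over the 15 genes was 0.13.

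HOPS and CORVET share a core of VPS11, VPS16, VPS18 and VPS33A and differ in the subunits that bind Rab proteins on late or early endosomes. VPS18 rose from 7.84, 7.89 and 7.93 to 8.27, 8.27 and 8.37, a log2 difference of 0.42 with a standard error of 0.0695 (limma adjusted p = 0.0212). VPS33A, the Sec1/Munc18-like protein of the core that templates SNARE assembly, rose from 6.24, 6.34 and 6.46 to 6.70, 6.98 and 6.75. Its log2 difference was 0.46 (limma adjusted p = 0.0375), and EGOT gapmer replicate 2 was the highest array. VPS11 stood at 0.39 and missed the threshold (limma adjusted p = 0.0539) with groups that did not overlap, and VPS16 was not analysed here. VPS8, specific to CORVET, fell from 7.22, 7.35 and 7.31 to 6.69, 6.86 and 6.95, a log2 difference of -0.46 (limma adjusted p = 0.0285). The HOPS subunits VPS39 and VPS41 had 0.23 and -0.14 and did not pass (limma adjusted p = 0.152 and 0.263). In each of the 6 measured genes the groups did not overlap, 4 above and 2 below, where 31.7% of all genes had groups that did not overlap.

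VPS33B, a homologue of VPS33A that works with VIPAS39 outside HOPS, had a difference of -0.17 (95% interval -0.45 to 0.10). The log2 ratio of VPS33A to VPS33B was higher by 0.63 with the EGOT gapmer. The genes span 36.9 and 24.2 kb.

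The VPS13 family encodes very large bridge-like proteins that carry lipids between membranes, and 3 of its 4 members fell, against 3.21% of all genes. VPS13B, which acts at the Golgi, read 8.03, 8.12 and 8.14 with the control gapmer and 7.59, 7.77 and 7.75 with the EGOT gapmer. Its log2 difference was -0.39 (standard error 0.0791, limma adjusted p = 0.0306). VPS13C, found at contacts of the endoplasmic reticulum with late endosomes and lysosomes, read 8.91, 8.90 and 8.98 against 8.58, 8.55 and 8.52, a log2 difference of -0.38 (limma adjusted p = 0.0234). VPS13A, found at contacts with mitochondria and lipid droplets, read 9.70, 9.77 and 9.71 against 9.45, 9.48 and 9.39, a log2 difference of -0.28 (limma adjusted p = 0.0484). VPS13D had -0.21 and did not pass (limma adjusted p = 0.175). In all 4 genes every EGOT gapmer array lay below every control, as in 11.5% of all genes. The family had the lowest median of the groups compared, at -0.33. These genes are also long, with a shortest span of 208 kb.

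GARP and EARP, which tether vesicles at the trans-Golgi network and at recycling endosomes, had 0 of 5 members past the threshold. VPS53 came closest, at -0.31 (limma adjusted p = 0.0553). VPS50 and VPS54 had -0.19 and -0.11, and VPS51 and VPS52 had 0.14 and 0.18. With their probe sets averaged VPS51 and VPS52 had 0.32 and 0.21 and did not pass (limma adjusted p = 0.11 and 0.0997). VPS53, VPS50 and VPS52 had unadjusted p-values of 0.00517, 0.0558 and 0.0331 by limma.

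Retromer, which returns cargo from endosomes to the Golgi or the cell surface, and the related retriever had all 6 measured genes above 0 in the values as deposited, with a median of 0.21, while VPS35L lay at -0.044 after quantile and -0.049 after cyclic loess normalization. VPS35, the retromer scaffold, rose from 10.35, 10.34 and 10.26 to 10.54, 10.73 and 10.66, a log2 difference of 0.33 with a standard error of 0.0776 (limma adjusted p = 0.0477). VPS26A, which binds VPS35, had the same size of difference, 0.33, and missed the threshold (limma adjusted p = 0.0586). VPS29, the third retromer subunit, had 0.27 (limma adjusted p = 0.112). In these 3 genes every EGOT gapmer array lay above every control, as in 20.2% of all genes. The retriever subunits VPS26C and VPS35L had 0.14 and 0.00, and VPS26B had 0.05.

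ESCRT complexes sort ubiquitinated cargo into multivesicular bodies, and the ATPase VPS4 takes them apart. VPS28, a subunit of ESCRT-I beside TSG101, rose from 7.88, 7.87 and 7.83 to 8.09, 8.19 and 8.14. Its log2 difference was 0.28 (standard error 0.0673, limma adjusted p = 0.0477). Of the other 8 measured genes of this group 0 passed and 6 were above 0. The group's share called was 11.1%, near the 8.41% of all genes. VPS4B and VPS25 had 0.32 and 0.24 without passing (limma adjusted p = 0.0687 and 0.0907).

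Sorting nexins bind phosphoinositides through a PX domain, and 1 of 26 rose and 1 fell, so their share called, 7.69%, lay near that of all genes. SNX3, which works with retromer in recycling, rose from 7.82, 7.78 and 7.80 to 8.09, 8.19 and 8.19, a log2 difference of 0.36 (limma adjusted p = 0.0276). SNX13, which carries an RGS domain beside its PX domain, fell from 8.32, 8.35 and 8.41 to 8.03, 7.97 and 8.02, a log2 difference of -0.35 (limma adjusted p = 0.0282). Of 12 nexins with a membrane-bending BAR domain 0 passed and the median was 0.03. Among them SNX4 had 0.36 (limma adjusted p = 0.0574), and the retromer partners SNX1, SNX2, SNX5 and SNX6 lay between -0.12 and 0.04. SNX5 was at 0.02 as deposited and at -0.02 and -0.03 after quantile and cyclic loess normalization. SNX29 had -0.45 and missed the threshold (limma adjusted p = 0.0555). SNX27, which joins retromer to PDZ-binding cargo, had -0.21 (limma adjusted p = 0.131).

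Genes of the early secretory pathway mostly did not pass. Of 11 COPII genes listed 6 were measured, and the rest of the coat was not analysed here. Of the 6 measured genes 0 passed, with a median of 0.09. SEC16A, which organises exit sites of the endoplasmic reticulum, had -0.26 (limma adjusted p = 0.0824), while SEC23A and SEC23B of the inner coat had 0.20 and 0.11. By an unadjusted limma p under 0.05 SEC16A and SEC23A differed, at 0.0109 and 0.0487. In the group of translocon and signal peptidase genes SEC61A2 was the 1 of 7 that passed, where 8.41% of all genes passed. It encodes a second form of the pore subunit of the protein channel and rose from 6.88, 6.85 and 7.05 to 7.34, 7.46 and 7.41, a log2 difference of 0.47 (limma adjusted p = 0.0226). Its paralog SEC61A1 had -0.07 (95% interval -0.23 to 0.09). The log2 ratio of SEC61A2 to SEC61A1 was higher by 0.54, with groups that did not overlap. SEC62 and SEC63, helpers of that channel, had 0.19 and -0.04 and did not pass. With its 2 probe sets averaged SEC62 had 0.39 and passed (limma adjusted p = 0.041), so its call depended on the probe set. Of the SEC22 and SEC14-like families 0 of 2 and 0 of 4 passed, with SEC22B at 0.16, SEC14L6 at 0.36 and SEC14L5 at -0.14 (limma adjusted p = 0.462, 0.112 and 0.592). SEC14L6 had an unadjusted p of 0.0181.

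The single adaptor gene measured was AP1AR, also called gadkin, which links the adaptor AP-1 to kinesin and to actin regulators. It rose from 6.83, 6.99 and 6.88 to 7.33, 7.59 and 7.29, a log2 difference of 0.50 with a standard error of 0.1 (limma adjusted p = 0.0305). EGOT gapmer replicate 2 was the highest array, and the difference was 0.41 without it. Its call failed whichever 1 of the arrays was left out, with limma adjusted p between 0.0541 and 0.106. The calls of COG5, SNX13, TRAPPC6A, TRAPPC8, VPS8, VPS13A, VPS13B, VPS13C, VPS28, VPS33A and VPS35 likewise failed whichever 1 array was left out. The COPI coat and the subunits of AP-1, AP-2, AP-3 and AP-4 were not analysed here.

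**Figure D3:**
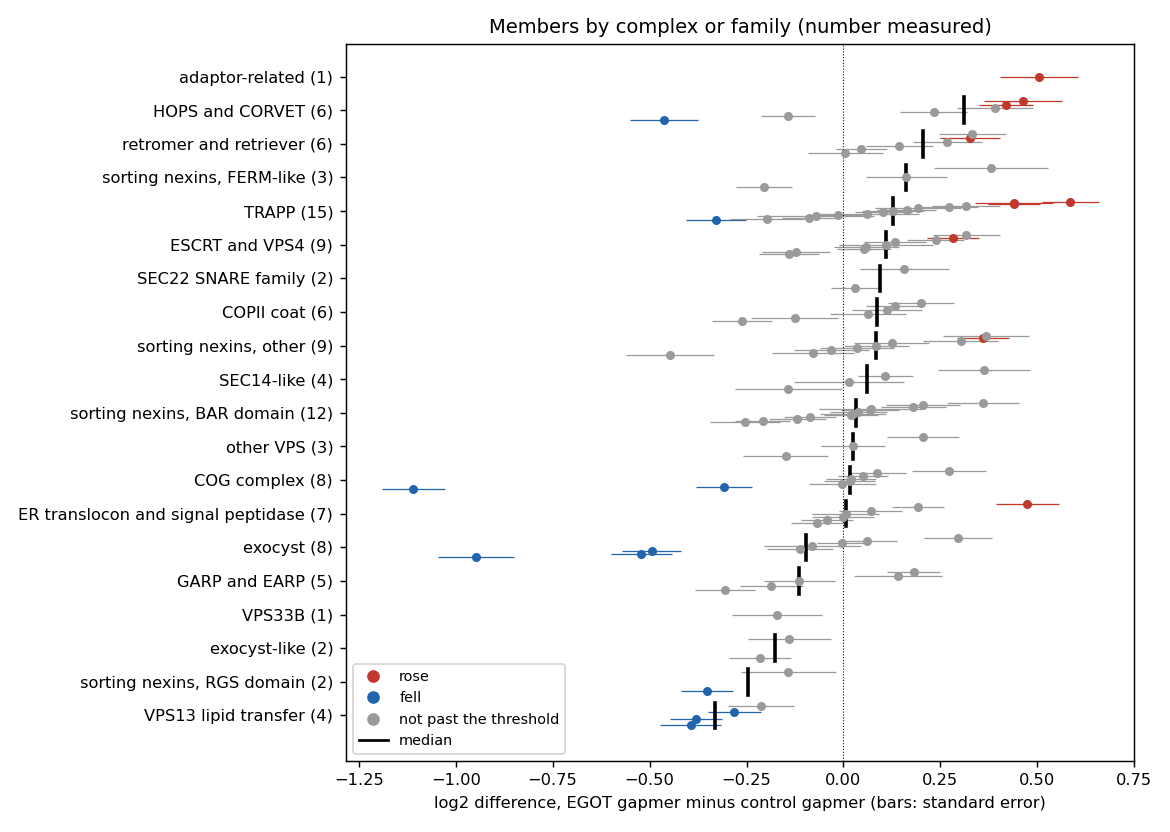
Log2 difference of each of the 113 protein-coding members with its standard error, grouped by complex or family and ordered by the group's median (black line). HOPS and CORVET had the highest median of the groups with more than 1 member, at 0.31, and the VPS13 family the lowest, at -0.33.

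Direction went with the length of the gene. The 11 members that fell span 114 to 864 kb of the genome, with a median of 240 kb, and the 10 that rose span 4.93 to 49.8 kb, with a median of 24.2 kb, so the ranges do not meet. Of 25 members over 100 kb 11 fell, 0 rose and 22 were below 0 in the values as deposited. Among the other protein-coding genes of that length 267 of 2088 fell, or 12.8%, and 0.862% rose. The other protein-coding genes were not matched to the members for expression level. Of the other vesicle traffic genes over 100 kb, described below, 12 of 26 fell as well. Of 32 members under 20 kb 5 rose, 0 fell and 28 were above 0, where 9.01% of the other protein-coding genes of that length rose. Across the 113 members the log2 difference had a Pearson correlation of -0.61 with the log10 span and a Spearman correlation of -0.60. Across 11798 other protein-coding genes these were -0.28 and -0.28. The points come from the same 6 arrays and genes are not independent replicates, so no p is given.

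**Figure D4:**
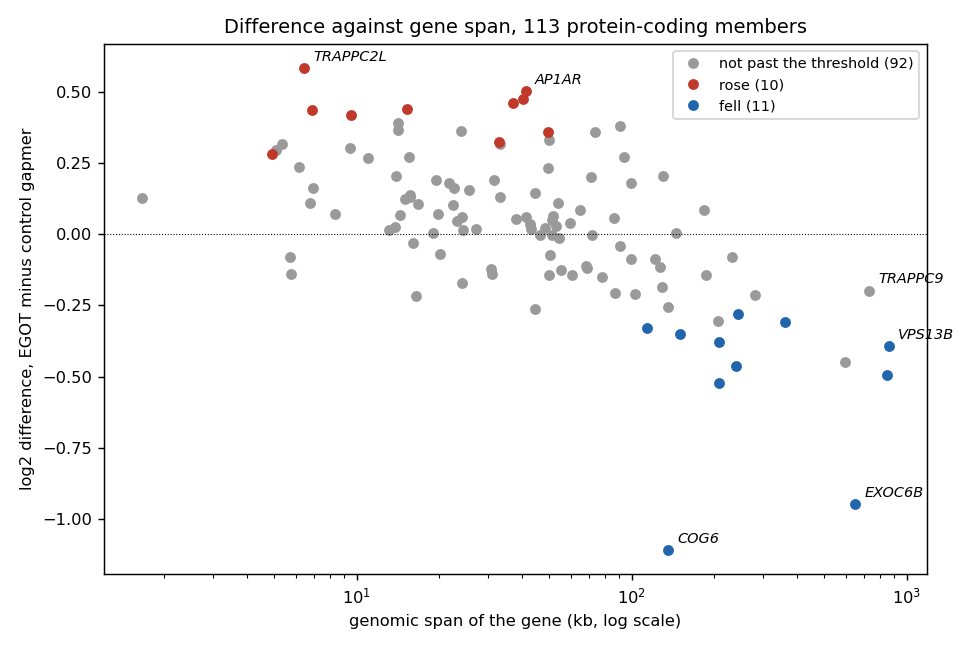
Log2 difference against genomic span on a log scale for the 113 protein-coding members, coloured by whether they rose, fell or did not pass. The 11 genes that fell span 114 kb or more and the 10 that rose span 49.8 kb or less.

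When the trend of the difference on span, fitted over all genes, was removed, 7 of the 21 members still passed, 3 lower and 4 higher, where 3.54% of all genes passed. COG6 was almost untouched, at -1.04 (limma adjusted p = 0.0071), and EXOC6B and EXOC2 had -0.75 and -0.42. TRAPPC2L, SEC61A2, TRAPPC5 and SNX3 had 0.50, 0.43, 0.35 and 0.33. The other 14 kept their sign and no longer passed. EXOC4 moved from -0.49 to -0.28, VPS13B from -0.39 to -0.18 and COG5 from -0.31 to -0.16, whereas VPS18 and VPS33A moved little, from 0.42 to 0.33 and from 0.46 to 0.41 (limma adjusted p = 0.0513 and 0.0708).

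**Figure D5:**
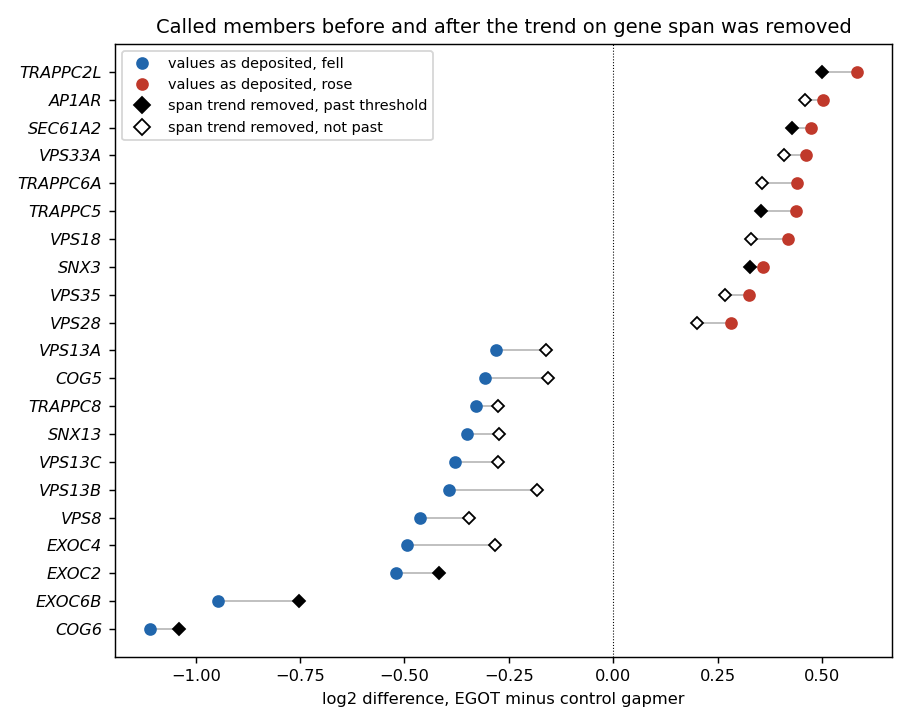
Log2 difference of the 21 called members in the values as deposited (circles) and after removal of the span trend (diamonds, filled where the limma adjusted p stays under 0.05). COG6 moves from -1.11 to -1.04 and VPS13B from -0.39 to -0.18.

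Other genes of vesicle traffic, taken as 6 lists of partners of these complexes, moved in both directions too. Of 128 measured 8 rose, or 6.25%, near the 5.2% of all genes, and 13 fell, or 10.2%, against 3.21% of all genes. Their median was 0.05, against 0.04 over all genes. SNAREs and fusion factors had 3 higher and 4 lower of 34, or 20.6% called, against 8.41% of all genes. VTI1A, a SNARE of endosomes and the trans-Golgi network, read 7.38, 7.36 and 7.39 with the control gapmer and 6.54, 6.50 and 6.66 with the EGOT gapmer, a log2 difference of -0.81 (limma adjusted p = 0.00807). STX8 and STX18, SNAREs of late endosomes and of the endoplasmic reticulum, fell by 0.67 and 0.53. Among 17 other tethers and golgins 4 fell and 0 rose, led by NBAS, a subunit of the tether that receives COPI vesicles at the endoplasmic reticulum, at -0.63, with UVRAG and CUX1 at -0.47 and -0.42. Among 18 cargo receptors IGF2R, the receptor for lysosomal enzymes, fell by 0.72 and KDELR3 rose by 0.34, while TMED1 stood at 0.25 (limma adjusted p = 0.104). The share of cargo receptors called was 11.1%, near the 8.41% of all genes.

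Of 32 endosome sorting partners 3 rose and 1 fell, or 12.5% called, against 8.41% of all genes. CHMP1B and CHMP2A, ESCRT filament subunits that act with VPS4, rose by 0.56 and 0.49, and CCDC93, part of the complex around retriever, fell by 0.52. Of 10 genes for other clathrin adaptors and the kinases that act on them 3 fell, namely PICALM by 0.40, BMP2K by 0.53 and AAK1 by 0.37. Over all genes 3.21% fell. Of 17 coat partners SAR1A, the GTPase that starts a COPII coat, rose by 0.36 and was the 1 that passed, with ARFGAP2 and ARF4 at 0.26 and 0.25 (limma adjusted p = 0.0765 and 0.0875). The share of coat partners called was 5.88%, against 8.41% of all genes. By span, 12 of 26 partners over 100 kb fell, where 12.8% of all protein-coding genes of that length outside the members did. Under 20 kb 6 of 48 rose, near the 9.01% of such genes of that length. With the trend on span removed 7 partners were lower and 2 higher, where 3.54% of all genes passed.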

How the data were processed

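RNA from 6 HuH7 samples, 3 per group, was labelled from 6 µg and hybridised to Affymetrix arrays. The authors deposited log2 values made with RMA, per the submitters' processing notes; the version of RMA, and whether probe sets were filtered, are details not given in any source used here. RMA normalizes arrays to a shared distribution, so a change in total RNA per cell is not seen, and fewer cells of a type cannot be told apart from less RNA per cell. Low values are mostly background, and the 3 arrays per group limit the precision. Of 44629 probe sets, 15835 had 1 gene symbol in GEO's platform annotation, 0 had several and 28794 were not named here. All symbols matched the RefSeq table of GRCh38.p14, which also gave gene spans. Genes (14812, of which 651 had several probe sets) were compared between the EGOT and control gapmer groups, with limma 3.58.1 under R 4.3.3 (lmFit, eBayes, two-sided, Benjamini-Hochberg over all genes, threshold 0.05). The script was tested on simulated data. The span trend was a loess curve (span 0.5) over all genes, subtracted from the EGOT gapmer arrays. The members and lists were chosen with earlier results of these data known. Genes named are EGOT, all called members, the members of each complex with the smallest p and the highest mean, and the 3 partners of each list with the smallest p. The other subunits and the antisense RNAs were named after their values were seen, to account for the members.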

Additional observations from a re-analysis of the deposited data

How the results depend on the processing

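The 21 called members kept their sign in all 13 other settings. Only quantile normalization, cyclic loess and removal of the span trend could have changed a sign. The other settings leave these differences as they are, or drop 1 array from groups that do not overlap. The number past the threshold did not hold. The count of higher members was 25 with a variance trend and 24 among genes above the median mean, 4 with the span trend removed and 0 with the replicate block, and 0 to 5 with 1 array left out. The count of lower members was 17 among genes above the median mean, 3 with the span trend removed, 0 with the block, and 1 to 4 with 1 array left out. The count of higher partner genes was 26, 28, 2 and 0 in those first 4 settings and 0 to 3 with 1 array left out. The count of lower partner genes was 20 with a variance trend, 7 with the span trend removed, 0 with the block and 0 to 8 with 1 array left out. Over all genes the calls numbered 2513 with a variance trend, 2547 of 7406 among genes above the median mean and 524 with the span trend removed, against 1245. Of these calls 61.8% were higher as deposited, 50.2% after quantile and 48.8% after cyclic loess normalization, where 9 members were higher and 14 lower. The replicate block left 0 of 14812 genes called and COG6 at -1.11 (limma adjusted p = 0.0543). Same-numbered arrays did not deviate together (correlations of -0.03, -0.05 and 0.04). The labels do not say whether same-numbered arrays share a culture, and these correlations cannot decide it. The COG6 difference was -1.16 to -1.04 with 1 array left out. Genes near 0 changed sign, with COG3 at 0.0017 with the span trend removed and -0.074 to 0.039 with 1 array left out, EXOC1 at -0.022 to 0.015, and SNX5 at -0.018 (quantile), -0.027 (cyclic loess), -0.048 (span trend removed) and -0.020 to 0.044. The cause of these changes was not tested.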

Other observations

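The 4 antisense RNAs that share a member's symbol are read on their own probe sets. VPS9D1-AS1 stood at -0.28 on the log2 scale (limma adjusted p = 0.177), while VPS9D1 had 0.03. VPS13A-AS1 had 0.01, beside VPS13A, which fell by 0.28. AP4B1-AS1 and SEC24B-AS1 had 0.21 and 0.11, and stood at 2.49 and 4.07 with the control gapmer, below the median of each array. The exocyst-like genes EXOC3L1 and EXOC3L4, had -0.14 and -0.22 and did not pass (limma adjusted p = 0.485 and 0.149).

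VPS72, which begins with VPS but encodes a chromatin remodelling subunit, had 0.20 (limma adjusted p = 0.223). VPS45, which acts with endosomal SNAREs, had -0.15 (limma adjusted p = 0.465).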
